A study of Mus musculus with 26 samples.

Results

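Transthyretin (Ttr) and 5 other transcripts known from the choroid plexus and the meninges were followed through ribosome footprinting and RNA-Seq of the striatum of LRRK2 mouse models. The 6 genes were Ttr, Enpp2, Igf2, Igfbp2, Ptgds and Clic6, taken by symbol. They were chosen by their measured log2 changes in footprinting and RNA-Seq and by TE in these same tables, so those values are given below as a description without a test. Of the 6 genes, 4 (Ttr, Enpp2, Ptgds and Clic6) were listed in every table, among 8535 transcripts that all 3 tables share, while Igf2 and Igfbp2 have no row in the tables analysed here.

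The choroid plexus is the epithelium in the brain ventricles that secretes cerebrospinal fluid, and its cells make Ttr in great amounts as the carrier of thyroxine and, bound to retinol binding protein, of retinol. The leptomeninges, which cover the brain, release prostaglandin D synthase (Ptgds) and, like the choroid plexus, insulin-like growth factor 2 (Igf2) and its binding protein Igfbp2. Enpp2 is autotaxin, the secreted enzyme that makes lysophosphatidic acid, and Clic6 belongs to the chloride intracellular channel family. Enpp2 and Ptgds are also expressed by oligodendrocytes, so these genes do not all point to a single cell type.

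The study asked how LRRK2 acts on translation in the caudate putamen, and all mice were C57BL/6 and 3 months old according to the sample labels. GS LRRK2 TG mice carry G2019S LRRK2 and GS/DA LRRK2 TG mice carry the kinase dead G2019S/D1994A form. Both transgenes come from high copy lines of a Tet-off system under a CaMKII-tTA driver, which is active in forebrain neurons, and they stayed off under doxycycline food until weaning, after which regular food was given. Their comparison group is non-TG control, with a wild-type genotype in the labels, and LRRK2 KO mice were set against WT mice. Each library came from the caudate putamen of 3 mice of both sexes pooled together. The labels give 3 footprinting and 3 RNA-Seq libraries for non-TG control, 2 and 2 for GS LRRK2 TG, 2 and 2 for GS/DA LRRK2 TG, and 3 and 2 each for WT and LRRK2 KO striatum. The resolved means held 2 libraries each, so 1 labelled library per group was missing from the footprinting means of WT and LRRK2 KO and from the control means compared with GS/DA LRRK2 TG. The tables do not name the libraries they hold.

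Each table gives 1 normalized mean of the reads in the CDS per group and assay, with no spread. Because each library adds whole reads divided by its own size factor, the mean of 2 libraries holds the reads of each, and these were recovered for 10 of 12 columns of means. Neither non-TG control column in the table with GS LRRK2 TG could be resolved, so that comparison has no control libraries. Within a group and assay, library 1 is the more deeply read and library 2 the other. These names carry no replicate number, and a footprinting library was not tied to an RNA-Seq library of the same number. The recovered footprinting libraries held 7485950 to 19467612 reads in the transgenic tables and 2865921 to 6040935 in the LRRK2 KO table, and the RNA-Seq libraries held 3145925 to 14500251. The precision of single values is limited by having 2 pools per group. In the LRRK2 KO table counting also limits it where few reads were held, as for Clic6, with 39 to 194 reads per library.

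Lrrk2 (uc007xhz.1, chromosome 15, 91503606 to 91646551, plus strand, mm9) was examined first, as a check of the labels. In the KO comparison, its footprinting values were 400.3 and 690.1 in the WT libraries and 102 and 149.7 in the LRRK2 KO libraries, and its RNA-Seq values were 1278 and 733 in WT and 423 and 270.0 in LRRK2 KO. Both LRRK2 KO libraries lay under both WT libraries in each assay. In the GS/DA LRRK2 TG table, Lrrk2 footprinting was 1445 and 1224 in the control libraries, against 7267 and 4766 for GS/DA LRRK2 TG, without overlap. The GS LRRK2 TG libraries held 3320.5 and 7052, both above the control mean of 2524. Lrrk2 RNA-Seq did not separate the transgenic groups, with 5233 and 560.2 in the controls against 404 and 5038 in GS/DA LRRK2 TG, and with 3549.6 and 214 in GS LRRK2 TG against a control mean of 2105. Lrrk2 footprinting thus followed the labels in the LRRK2 KO and GS/DA LRRK2 TG comparisons. For GS LRRK2 TG the control libraries could not be seen, and the control mean of 2524 was higher than the 1335 of the other transgenic table, although the control level of the median transcript was lower in the GS LRRK2 TG table (the tables were normalized separately), so the control label was not checked by Lrrk2.

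A marker list was used to look for the tissues after which the genes are known. Of 36 choroid plexus markers, 9 were listed in each transgenic table and 10 in the LRRK2 KO table. The defining markers Kl, Folr1, Kcnj13, Aqp1, Prlr, Sostdc1 and Otx2 have no row in the tables analysed here. The most abundant listed marker, Vat1l, and others such as Ace and Htr2c are also expressed in striatal neurons. Of 27 leptomeningeal markers only Col6a1 and Col6a2 were listed, and of 15 ependymal markers Foxj1 and Spag6. Neither choroid plexus nor meninges can therefore be read from defining markers in these tables, and the genes are named singly below.

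In the GS LRRK2 TG table, Ttr (uc008eet.2, chromosome 18, 20823751 to 20832825, plus strand, mm9) had a footprinting mean of 3944 in non-TG control, and the GS LRRK2 TG libraries held 408 and 1037, from 309 and 685 reads. Its RNA-Seq mean was 4451 in the control, and the GS LRRK2 TG libraries held 1982 and 421. All 4 GS LRRK2 TG libraries lay below the control mean of their assay, and whether they lay below each control library could not be seen. The log2 change was -2.45 in footprinting and -1.89 in RNA-Seq. Ttr had the second lowest change of 8576 transcripts in each assay, where the SD over all transcripts was 0.15 and 0.21. These SDs are between group means, and both GS LRRK2 TG RNA-Seq libraries stood further apart, with an SD of the log2 library ratio of 1.77. That ratio rose with GC in the CDS (Spearman's rho 0.79 over transcripts, which are not independent replicates). In bulk tissue, fewer cells of a type and less RNA per cell cannot be told apart.

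Against GS/DA LRRK2 TG, both libraries of each group were at hand. Ttr footprinting was 1193 and 17056 in the non-TG control libraries, against 5162 and 1137 for GS/DA LRRK2 TG. Ttr RNA-Seq was 1811 and 13982 in the controls and 1137 and 7469 in GS/DA LRRK2 TG. A single control library was high in each assay, a single GS/DA LRRK2 TG library was intermediate, and the remaining libraries of both groups lay together at the bottom, so that the groups overlapped in both assays. The control footprinting libraries differed 14.3-fold and rest on 1549 and 13617 reads, so counting error was small beside the distance between them.

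The Ttr group means gave a log2 change of -1.53 in footprinting, the second lowest of 8576 transcripts, and -0.88 in RNA-Seq, the fifth lowest. These changes turned with the high control library. Without it, the log2 change was 1.40 in footprinting and 1.25 in RNA-Seq, and leaving out other libraries gave -3.00 to -0.82 and -2.80 to -0.08. When each control library was set against the GS/DA LRRK2 TG library of its own library batch, the footprinting change was 2.11 in batch 1 and -3.91 in batch 2, and the RNA-Seq change was 2.04 and -3.62. The batches were read from a library difference shared by both groups, a choice made after seeing the data. A direction of change for Ttr in GS/DA LRRK2 TG was thus not separable from the distance between the control libraries.

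**Figure D1:**
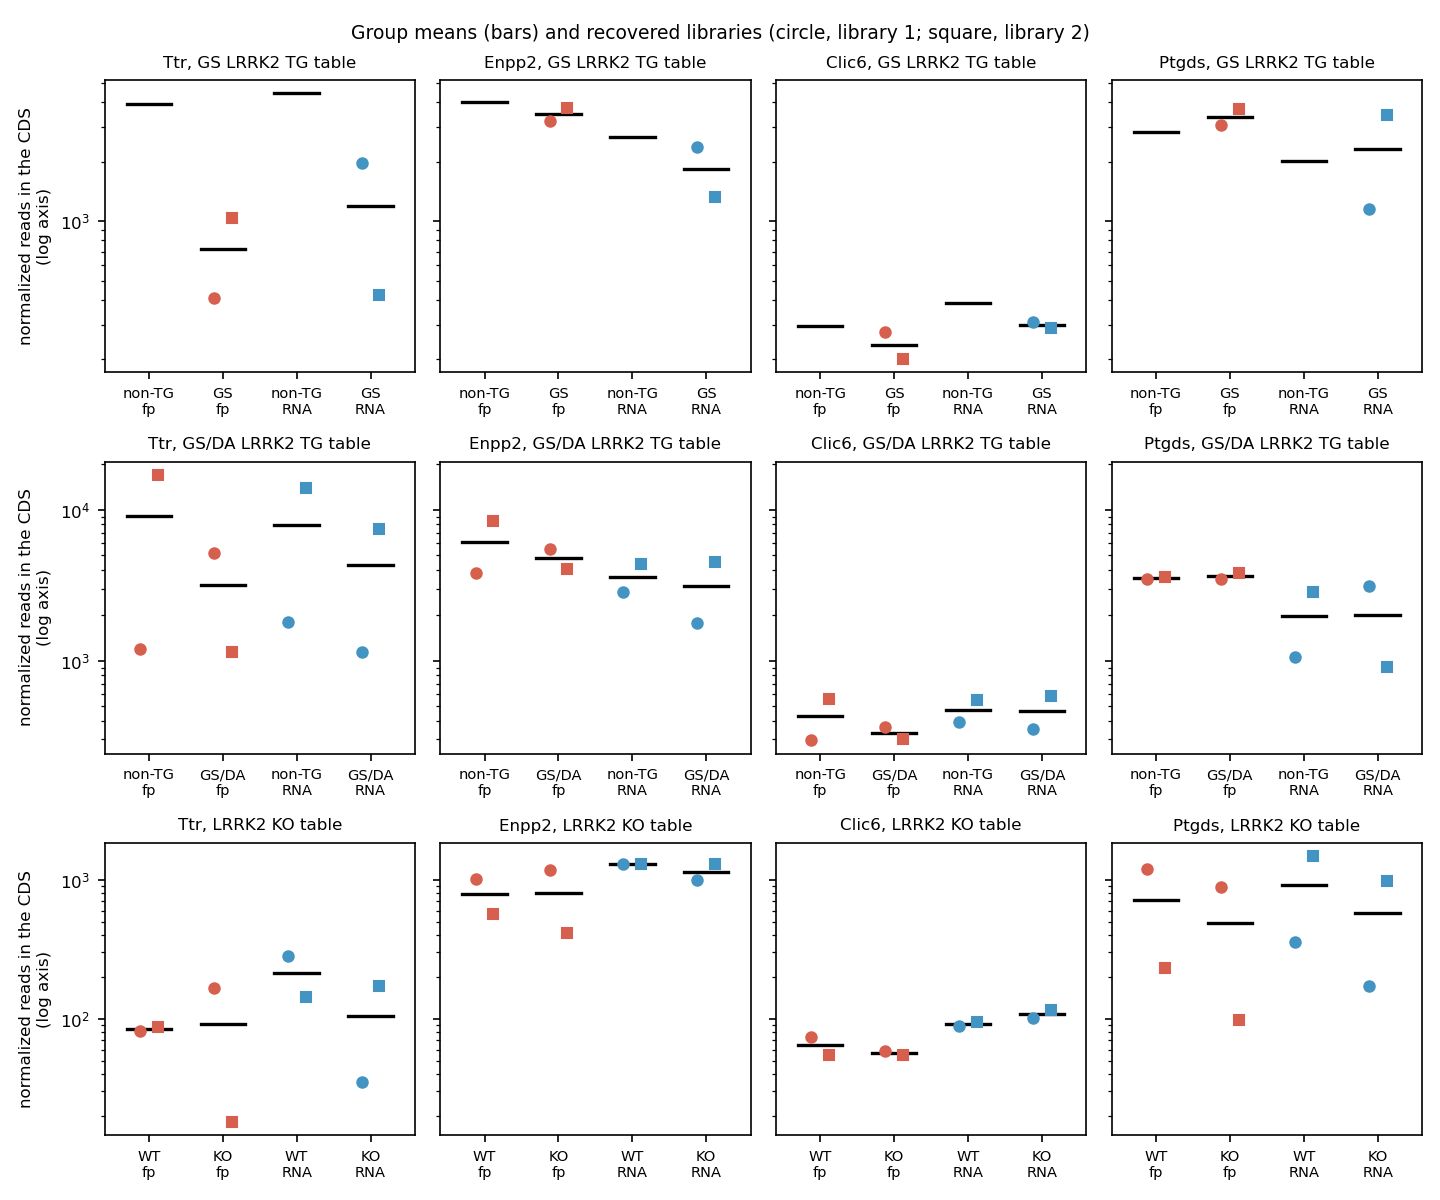
Normalized reads in the CDS (log axis) of Ttr, Enpp2, Clic6 and Ptgds in footprinting (fp, red) and RNA-Seq (RNA, blue), with a panel per gene and table, bars for the authors' group means, circles for library 1 and squares for library 2. Ttr spans 1193 to 17056 between both control footprinting libraries compared with GS/DA LRRK2 TG, while Ptgds lies at 3486 and 3582 in the same libraries.

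The other genes were examined in the control libraries between which Ttr differed. Enpp2 footprinting was 3830.5 in control library 1 and 8465 in control library 2, and Clic6 was 296 and 556. Ptgds was 3486 and 3582. Ttr, Enpp2 and Clic6 were thus all higher in library 2, while Ptgds was level. On the log2 scale, library 2 over library 1 was 3.84 for Ttr, 1.14 for Enpp2, 0.91 for Clic6 and 0.04 for Ptgds, against a median of 0.00 and an SD of 0.29 over 8451 transcripts. Over transcripts, which are not independent replicates, this ratio also rose with GC in the CDS (Spearman's rho 0.43). A ratio of 0.5 or more was reached by 3 of 4 genes and by 2.19% of all transcripts. These libraries were examined because Ttr differed between them, so nothing is read from this count. Ttr stood second from the top, after a transcript of Gm14308 at 5.35, which was looked up after its value was seen and whose other 2 transcripts were both at -1.52. In that column 0.525% of transcripts still resolved after a shift of the values, so a single split can be a chance match, while Ttr also differed 7.72-fold between the control libraries of the separately resolved RNA-Seq column. Enpp2 stood ninth, and Clic6 had rank 16.

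Some listed choroid plexus markers were also higher in control library 2, but the sum of all listed ones ran apart from Ttr in the transgenic libraries. Of 9 listed markers, 4 had a ratio of 0.5 or more, as had 2.19% of all transcripts. These were Slc4a2 at 1.04, Car12 at 0.83, Vat1l at 0.63 and Ace at 0.53. The median of the 9 was 0.50, beside 0.27 for spiny neuron and 0.26 for oligodendrocyte genes. Slc4a2, a bicarbonate exchanger of the basolateral membrane, was named after its value was seen, as was Rbp4, the retinol carrier that binds Ttr, at 0.95. The summed footprinting level of the 9 markers was 5562 in control library 1 and 8216 in control library 2. For GS/DA LRRK2 TG it was 5799 and 6820.2, while Ttr, Enpp2 and Clic6 were lower in library 2 and Ptgds was higher. In the same control libraries Trpm3, also named after its value was seen, was at -0.04, and the leptomeningeal markers Col6a1 and Col6a2 were at 0.34 and 0.00. Their sum was 509.8 and 589 in the control libraries, against 473 and 579 for GS/DA LRRK2 TG. The ependymal markers Foxj1 and Spag6 were at 0.53 and 0.10 in the control libraries. In the GS LRRK2 TG footprinting libraries, where Ttr was higher in library 2, the choroid plexus sum was 6055 and 4481, with 0 of 9 markers at or above 0.5 (6.46% of all transcripts) and 3 at or below -0.5 (7.38%). The median ratio was -0.42 for leptomeningeal and -0.67 for ependymal markers there. In the GS LRRK2 TG footprinting libraries the median ratio was -0.37 for choroid plexus markers and -0.45 for spiny neuron genes. In those of GS/DA LRRK2 TG it was 0.22 and 0.52. Since Vat1l, Ace and Htr2c are also expressed in striatal neurons, the listed markers cannot show whether choroid plexus content followed Ttr. The part of these markers in the Ttr difference was not tested.

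In RNA-Seq, both control libraries compared with GS/DA LRRK2 TG lay much further apart for all transcripts, with an SD of the log2 ratio of 1.47. The ratio itself rose with the GC content of the CDS (Spearman's rho 0.78 across 8292 transcripts, which are not independent replicates). Against that spread, the Ttr ratio of 2.95 had rank 174. The summed choroid plexus markers were 3974 and 7922 in the control RNA-Seq libraries and 6608 and 4155 in those of GS/DA LRRK2 TG. The leptomeningeal sums were 347 and 691, and 802 and 352. These sums and the Ttr values were high in the same control library. In GS/DA LRRK2 TG both sums were higher in library 1, as was Ptgds (3129 and 908). Ttr, Enpp2 (1772 and 4514) and Clic6 (352 and 580) were higher in library 2 of that group. There the ratio of all transcripts ran against GC (rho -0.80), and most lists were split like these sums, with medians in the control and in GS/DA LRRK2 TG of 0.61 and -0.63 for oligodendrocyte, 0.93 and -1.50 for spiny neuron and 1.25 and -2.34 for red blood cell genes.

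**Figure D2:**
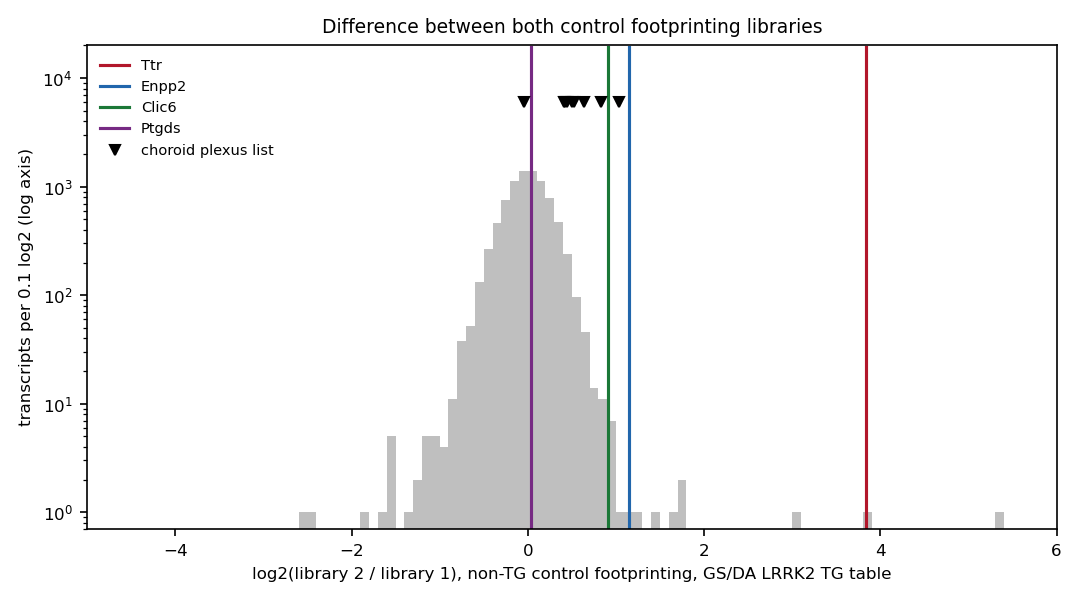
Number of transcripts (log axis) by log2 ratio of library 2 over library 1 in non-TG control footprinting as compared with GS/DA LRRK2 TG, for 8451 transcripts with a mean of at least 100. Coloured lines mark Ttr at 3.84, Enpp2 at 1.14, Clic6 at 0.91 and Ptgds at 0.04, and black triangles mark the 9 listed choroid plexus markers, whose median is 0.50.

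The labels give 3 control libraries per assay for both transgenic comparisons, and the tables do not name those they hold. The changes can therefore not be taken as independent of each other. The tables were normalized separately, and the control footprinting mean of the median transcript was 0.34 higher on the log2 scale in the GS/DA LRRK2 TG table than in the GS LRRK2 TG table, with an SD of 0.08. For Ttr this difference was 1.21, the second highest of all, for Enpp2 0.62, for Clic6 0.53 and for Ptgds 0.32. In RNA-Seq, the difference was 0.83 for Ttr beside a median of 0.13 and an SD of 0.16. The control means of Ttr thus differed between the tables by more than those of most transcripts, although the labels give a single control group.

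Ttr had few footprints in the LRRK2 KO table. Its values were 81.0 and 87.9 in the WT libraries and 165 and 18.2 in the LRRK2 KO libraries, from 104, 66, 241 and 13 reads. RNA-Seq values were 282 and 143 in WT and 34.8 and 173 in LRRK2 KO. The LRRK2 KO libraries lay on both sides of WT in footprinting, and in RNA-Seq the groups overlapped. The log2 change was 0.12 in footprinting and -1.03 in RNA-Seq, the latter with rank 11 from the lowest of 9561 transcripts. Without LRRK2 KO library 1, the footprinting change was -2.22, and without LRRK2 KO library 2 it was 0.97. Without LRRK2 KO library 1 the RNA-Seq change was -0.29, and without LRRK2 KO library 2 it was -2.61. Within library batches 1 and 2, the footprinting change was 1.03 and -2.27 and the RNA-Seq change -3.02 and 0.28.

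Enpp2 (uc007vro.2, chromosome 15, 54670453 to 54751701, minus strand, mm9) had a footprinting mean of 4013 in non-TG control and 3221 and 3761 in the GS LRRK2 TG libraries. Its RNA-Seq mean was 2677 in the control and 2367 and 1320.4 in the GS LRRK2 TG libraries. All 4 libraries lay under the control mean, at a log2 change of -0.20 and -0.54, the latter between -1.02 and -0.18 with a library left out. For GS/DA LRRK2 TG, the Enpp2 footprinting values of 5459 and 4055 lay between those of both control libraries given above, and the RNA-Seq values were 2849 and 4359.6 in the controls and 1772 and 4514 in GS/DA LRRK2 TG. The groups overlapped in both assays, with log2 changes of -0.37 and -0.20. With a library left out these ran from -0.83 to 0.31 and from -1.02 to 0.32, and within library batches 1 and 2 they were 0.51 and -1.06 in footprinting and 0.66 and -1.30 in RNA-Seq, so no direction was kept. Enpp2 footprinting beside LRRK2 KO was 1005 and 568 in WT and 1178 and 413 in LRRK2 KO, and its log2 changes were 0.02 in footprinting and -0.18 in RNA-Seq, which ran from -0.93 to 0.58 and from -0.38 to -0.01 with a library left out.

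Clic6 (uc007zzg.1, chromosome 16, 92485981 to 92541488, plus strand, mm9) was the least abundant of the 4 genes. Its footprinting mean was 294 in non-TG control, and 274 and 201 in the GS LRRK2 TG libraries, a log2 change of -0.31 that ran from -0.55 to -0.11 with a library left out. Its RNA-Seq mean was 388 in non-TG control, beside 308 and 289.9 for GS LRRK2 TG, a change of -0.37 that stayed between -0.42 and -0.33 with a library left out. The GS/DA LRRK2 TG libraries held 364 and 304, inside the range of the controls, at a log2 change of -0.35 that ran from -0.74 to 0.17 with a library left out and was 0.29 and -0.87 in library batches 1 and 2. The RNA-Seq change was -0.02, with 0.56 and -0.64 in library batches 1 and 2. Clic6 RNA-Seq in the LRRK2 KO table was 88.2 and 94.6 in WT and 101 and 115 in LRRK2 KO, from 118, 49, 194 and 87 reads. This was the only case among the 4 genes in which the recovered libraries of the groups did not overlap, at a log2 change of 0.24, while its footprinting change was -0.18 and ran from -0.38 to 0.05 with a library left out. The distance between 94.6 and 101 may lie within counting error, since WT library 2 held 49 reads. Non-overlapping libraries were found for 0 of 4 genes in LRRK2 KO footprinting (12.6% of all transcripts), 1 of 4 in LRRK2 KO RNA-Seq (14.1%), 0 of 4 in GS/DA LRRK2 TG footprinting (24.2%) and 0 of 4 in GS/DA LRRK2 TG RNA-Seq (3.37%).

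Ptgds (uc008isf.1, chromosome 2, 25322229 to 25325566, minus strand, mm9) differed from the others in the transgenic tables. Its footprinting mean was 2822 in non-TG control and 3075 and 3714 in the GS LRRK2 TG libraries, a log2 change of 0.27. Its RNA-Seq mean was 2022 in non-TG control and 1160.1 and 3467 in the GS LRRK2 TG libraries, a change of 0.19 that ran from -0.80 to 0.78 with a library left out. Its footprinting values were 3468 and 3790.0 in GS/DA LRRK2 TG beside 3486 and 3582 in the controls. Its RNA-Seq values were 3129 and 908 in GS/DA LRRK2 TG beside 1055 and 2869 in the controls, far apart in both groups. Its changes were 0.04 in both assays, and in RNA-Seq the change ran from -1.11 to 0.94 with a library left out. Ptgds was thus level across footprinting libraries between which Ttr differed 14.3-fold.

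In the LRRK2 KO table, Ptgds footprinting was 1189.9 and 232 in the WT libraries and 884 and 97.9 in the LRRK2 KO libraries. RNA-Seq was 359 and 1472 in WT and 171 and 979 in LRRK2 KO. The libraries of a group lay further apart than the groups, and the deeper library was high in footprinting and low in RNA-Seq in both genotypes. The log2 changes were -0.53 in footprinting and -0.67 in RNA-Seq. Within library batches 1 and 2 they were -0.43 and -1.24 in footprinting and -1.07 and -0.59 in RNA-Seq, so LRRK2 KO lay below WT in each batch. Without WT library 1, the footprinting change was 1.08, and without LRRK2 KO library 2 it was 0.31. Without WT library 2, the RNA-Seq change was 0.68, and without LRRK2 KO library 1 it was 0.10. The footprints of microglial markers were split between the libraries in the same way, with 8 of 10 markers listed, and a sum of 1068 and 185 in WT and of 1268 and 189 in LRRK2 KO. Over all transcripts, the log2 ratio of library 2 over library 1 had an SD of 0.68 in both genotypes. At or below -0.5 were 18.4% of transcripts in WT and 17.6% in LRRK2 KO. The ratio ran against GC in the CDS (Spearman's rho -0.59 and -0.26 over transcripts, which are not independent replicates). Within that spread other lists were split likewise. Medians of the log2 library ratio were -1.36 in WT and -1.68 in LRRK2 KO for the IGF list, -1.99 and -0.80 for red blood cell genes and -1.14 and -1.18 for spiny neuron genes. So were the choroid plexus list (2 and 3 genes), at -0.95 and -1.73, the astrocyte list, at -0.65 and -0.66, and 1 endothelial and mural gene, at -1.45 and -1.59. The leptomeningeal sums were 129 and 50.6 in WT and 129 and 42.0 in LRRK2 KO. The lysophosphatidic acid and prostaglandin list, at -0.40 and -0.29, was split less. The oligodendrocyte list, at 0.31 and -0.06, the partners of Ttr, at 0.04 and 0.12, the 1 measured CLIC gene, at 0.70 and 0.23, and the cortical markers, at -0.45 and 0.49, were not split likewise. Aif1 has no row in the tables analysed here, and the part of these lists in the Ptgds values was not tested.

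The 4 genes were then counted past a log2 change of 0.5. In GS LRRK2 TG footprinting 1 of 4 genes, Ttr, was at or below -0.5, as were 0.198% of all transcripts, and 0 were at or above 0.5 (0.14% of all). In GS LRRK2 TG RNA-Seq, Ttr and Enpp2 were at or below -0.5, 2 of 4 against 2.72% of all transcripts, and 0 were above (0.233%). Enpp2 no longer passed -0.5 there without GS LRRK2 TG library 2. In GS/DA LRRK2 TG, Ttr was the only gene of the 4 at or below -0.5 in footprinting (0.326% of all transcripts) and in RNA-Seq (0.257%), and 0 were at or above 0.5 (0.49% and 2.46%). In the LRRK2 KO table, Ptgds was at or below -0.5 in footprinting, where 1.07% of all transcripts were, and Ttr and Ptgds in RNA-Seq, with 2.51% of all. At or above 0.5 there were 0 of 4 (1% of all transcripts in footprinting and 0.669% in RNA-Seq). These are the contrasts from which the genes were chosen, and nothing is read from the counts.

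**Figure D3:**
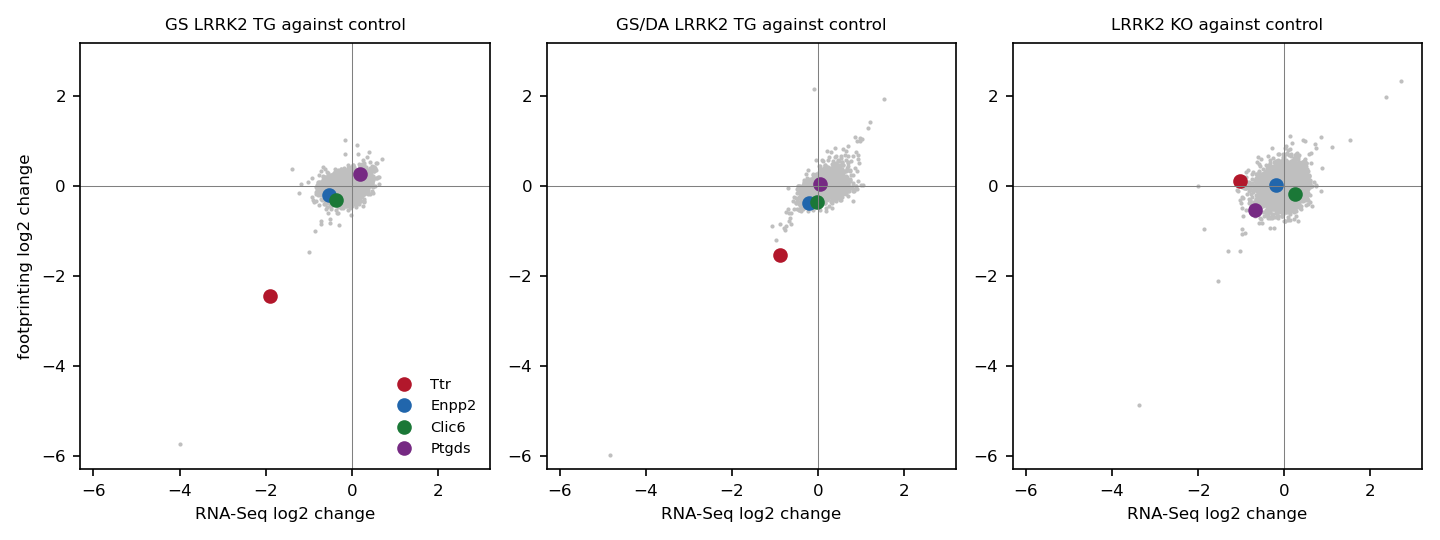
Log2 change in footprinting (vertical axis) against log2 change in RNA-Seq (horizontal axis) for every transcript of each table (grey), with Ttr, Enpp2, Clic6 and Ptgds coloured. Ttr lies at -2.45 and -1.89 in GS LRRK2 TG, at -1.53 and -0.88 in GS/DA LRRK2 TG, and at 0.12 and -1.03 in LRRK2 KO, in the order footprinting and RNA-Seq.

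TE, the log2 ratio of the footprinting mean to the RNA-Seq mean, was -0.17 for Ttr in non-TG control beside -0.73 for GS LRRK2 TG, a difference of -0.56. Beside GS/DA LRRK2 TG at -0.45 the control stood at 0.21, a difference of -0.66. In the LRRK2 KO table it was -1.33 in WT and -0.18 in LRRK2 KO, a difference of 1.14, the seventh highest of 9561. Without a single library of either assay, the TE difference of Ttr ran from -1.38 to 0.95 in GS LRRK2 TG, from -2.78 to 2.28 in GS/DA LRRK2 TG and from -1.19 to 2.72 in LRRK2 KO. Each range crossed 0. For Enpp2, the TE difference was 0.34, -0.17 and 0.20 in the same order of tables, for Clic6 0.06, -0.34 and -0.42, and for Ptgds 0.07, 0.00 and 0.14. Without a single library, the Enpp2 differences ran from -0.02 to 0.82, from -0.69 to 0.65 and from -0.75 to 0.77, and those of Ptgds from -0.51 to 1.07, from -0.90 to 1.15 and from -2.19 to 1.89. Those of Clic6 ran from -0.17 to 0.27, from -0.72 to 0.19 and from -0.62 to -0.19, so all but the last changed sign.

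Levels of different genes were compared per kb of CDS, with CDS lengths of 0.441 kb for Ttr, 0.567 kb for Ptgds, 2.817 kb for Enpp2 and 1.869 kb for Clic6. In non-TG control footprinting of the GS LRRK2 TG table, the level per kb was 8944 for Ttr, 4977 for Ptgds, 1425 for Enpp2 and 158 for Clic6. Ttr exceeded 97.8% of transcripts there, Ptgds 95.3%, Enpp2 83.2% and Clic6 21.6%. In the GS/DA LRRK2 TG table, normalized separately, the control levels per kb were 20691 for Ttr, 6233 for Ptgds, 2182 for Enpp2 and 228 for Clic6, and the order was the same. The first place of Ttr rests on control library 2 there, since in control library 1 Ttr, at 1193 over 0.441 kb, lay below Ptgds, at 3486 over 0.567 kb. In GS/DA LRRK2 TG, Ttr at 7141 per kb and Ptgds at 6401 did not differ beyond the distance between the libraries of Ttr.

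In WT footprinting of the LRRK2 KO table, the order was another one. Ptgds came first at 1254 per kb, followed by Enpp2 at 279, Ttr at 192 and Clic6 at 34.4. Ttr exceeded 66.1% of transcripts there, while Ptgds exceeded 93.7%, Enpp2 74.8% and Clic6 15.6%. In WT RNA-Seq, Ttr and Enpp2 lay close together at 481 and 459.7 per kb, nearer than both WT libraries of Ttr lay to each other. The WT mice and the non-TG control mice belong to different tables, and the difference between them was not tested.

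In the annotation of the same build, the coding bases of the 4 genes did not overlap exons of other genes (0 bases each), although Gm16090 overlaps the span of Ttr and 2410124H12Rik that of Clic6. The authors' folding energy of the 5′UTR was -58.7 kcal/mol for Ttr, -55.6 for Enpp2, -18.5 for Ptgds and -111 for Clic6. A lower value, that is a more stable structure, was found for 64.8%, 66.5%, 88.9% and 42.5% of the transcripts of the transgenic tables, so the 4 genes did not share a folding energy at either extreme.

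Gene lists around the 4 genes were read from group means. The genes named from each list are the most abundant, and those past 0.5 were named after their values were seen. The lists hold 215 genes, of which 98 were listed in each transgenic table and 104 in the LRRK2 KO table. In any assay and table, at most 2.72% of all transcripts passed 0.5 in a given direction. A count of 0 in a list, here and below, is therefore not a result about its genes. The 9 choroid plexus markers had a median log2 change of 0.05 in footprinting and -0.09 in RNA-Seq in GS LRRK2 TG, against 0.00 and -0.02 over all transcripts, and 0 of 9 passed 0.5 in either direction. In GS/DA LRRK2 TG their medians were -0.07 and -0.18, against -0.01 and 0.06, again with 0 of 9 past 0.5. In LRRK2 KO the medians of 10 markers were 0.26 and 0.07, against 0.02 and 0.01. The summed level of these markers was 5379.9 in non-TG control and 6055 and 4481 in the GS LRRK2 TG footprinting libraries. It was 1772 and 1429.6 in the WT libraries and 1790.5 and 1395 in the LRRK2 KO libraries.

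Vat1l, the most abundant of them, had footprinting changes of -0.15, -0.16 and -0.17, in the order GS LRRK2 TG, then GS/DA LRRK2 TG, then LRRK2 KO, which is kept below. Ace, the angiotensin-converting enzyme, was at 0.07, -0.07 and 0.41, and Htr2c, a serotonin receptor, at 0.07, -0.02 and -0.03. Car12, a carbonic anhydrase, was at -0.16, -0.23 and 0.44. The lowest footprinting change of any listed choroid plexus marker was -0.16 in GS LRRK2 TG and -0.42 in GS/DA LRRK2 TG. These are not set against Ttr, which was chosen by its change, so that a smaller fall was fixed beforehand. The 2 leptomeningeal markers, both chains of collagen VI, had median footprinting changes of -0.32, -0.03 and -0.07. For the ependymal markers, which were 2, 2 and 1 in number, these were -0.13, -0.19 and 0.12, and Spag6 had an RNA-Seq change of -0.55 in LRRK2 KO.

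The molecules that work with Ttr were listed apart. Of 13 thyroid hormone and retinol partners, 9 had a row in each transgenic table and 10 in the LRRK2 KO table, and 0 passed 0.5. Their median footprinting changes were -0.09, 0.00 and -0.03. Crym, which binds thyroid hormone in the cytosol, was at 0.11, 0.00 and 0.11, and the thyroid hormone receptor Thra at 0.05, -0.01 and 0.15. Klf9, a transcription factor induced by thyroid hormone, was at 0.01, 0.04 and 0.20. The retinoic acid receptor Rarb was at -0.09, -0.38 and -0.03, and Rbp4 at -0.47, -0.13 and -0.05.

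Partners of the other genes were also past 0.5 in few cases. The IGF list, with 7, 7 and 8 of 16 genes listed, had median footprinting changes of 0.01, 0.10 and -0.06 and 0 genes past 0.5. Its best read genes were Htra1, a protease that degrades IGF binding proteins, and the receptor Igf2r, at 0.20 and 0.01 in GS LRRK2 TG. Of 18 genes of lysophosphatidic acid and prostaglandin metabolism, 6 were listed in each table, with medians of 0.04, -0.02 and 0.10, and the phosphatase Ppap2a was past 0.5 in LRRK2 KO RNA-Seq at 0.56. The prostaglandin E synthase Ptges3 was at 0.10, -0.07 and 0.06. Of 4 CLIC relatives of Clic6, Clic4 and Clic1 were listed, with footprinting changes of 0.14, -0.17 and -0.27 for Clic4 and of 0.36, -0.09 and 0.02 for Clic1.

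Markers of glial and vascular cell types were read in the same way. All 16 oligodendrocyte markers were listed, with median footprinting changes of 0.20, 0.05 and -0.06, and 2 of them, Apod and Opalin, were past 0.5 in GS LRRK2 TG RNA-Seq at 0.52 and 0.51. The 12 astrocyte markers had medians of 0.09, 0.09 and -0.12, and the glutamate transporter Slc1a2 was at -0.67 in LRRK2 KO RNA-Seq. The 8 microglial markers had medians of 0.07, 0.08 and 0.13, and C1qa and C1qb, chains of a complement factor, were at 0.54 and 0.73 in LRRK2 KO RNA-Seq. Of 16 endothelial and mural markers, 4, 4 and 5 were listed with medians of 0.28, -0.12 and -0.15, and Tagln, a smooth muscle protein, was at -0.73 and -0.54 in LRRK2 KO footprinting and RNA-Seq.

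The spiny neuron list, with 14 of 17 genes, had medians of -0.12, -0.21 and 0.11, and 2 genes were past 0.5, both in GS/DA LRRK2 TG footprinting, the peptide precursor Penk at -0.53 and the dopamine receptor Drd1a at -0.50. The 3 listed red blood cell genes were at -0.61 to -0.71 in LRRK2 KO footprinting, the globin Hba-a2 lowest, and passed 0.5 in no other assay or table. Cortical projection neuron markers, 4, 4 and 7 of 7, had median footprinting changes of -0.23, 1.18 and 0.01. In GS/DA LRRK2 TG, Slc17a7, Tbr1 and Neurod6 were at 1.30, 1.42 and 1.05 in footprinting and at 1.17, 1.21 and 1.03 in RNA-Seq, and Slc17a7 was at -0.92 in GS LRRK2 TG RNA-Seq. In LRRK2 KO RNA-Seq, Tbr1 and Rorb were at -0.80 and -0.52. The part of these cell types in the values of the 4 genes was not tested.

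The lists were tested with limma where each group had both of its libraries, while the 4 genes themselves were left without a p-value. At an adjusted p under 0.05 there were 0 calls of 92 list genes and of 8429 transcripts in GS/DA LRRK2 TG footprinting (0%), with 6 and 155 at an unadjusted p under 0.05. In GS/DA LRRK2 TG RNA-Seq, limma called 0 of 96 list genes and 0 of 8504 transcripts (0%), with 0 at an unadjusted p under 0.05. In LRRK2 KO footprinting and RNA-Seq limma called 0 of 104 list genes and 0 of 9532 transcripts (0%) each, with 16 and 7 transcripts and 0 list genes at an unadjusted p under 0.05. A limma fit with the library batch as a block called 3 list genes in GS/DA LRRK2 TG footprinting, Neurod6, Slc17a7 and Tbr1, among 23 of 8429 transcripts. The same limma fit called 0 of 8504 transcripts in GS/DA LRRK2 TG RNA-Seq, 15 of 9532 in LRRK2 KO footprinting and 11 of 9532 in LRRK2 KO RNA-Seq, with 0 list genes in each. A choroid plexus, leptomeningeal or ependymal marker was not among the limma calls of any fit. The fits without a block called 0 transcripts of any kind, not even Lrrk2, so nothing about these markers is read from missing calls.

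The transcripts nearest to Ttr were sought by Euclidean distance over the 6 log2 changes, among 6161 transcripts whose 12 group means were all at least 100. Ttr itself had 2 means under 100. The 5 nearest were Ddit4l at a distance of 2.25, Nr4a1 at 2.48, Egr4 at 2.58, Egr2 at 2.59 and D4Wsu53e at 2.75, and the median distance was 3.71. Ddit4l, an inhibitor of mTORC1 signaling, had footprinting changes of -0.82 in GS LRRK2 TG and -1.21 in GS/DA LRRK2 TG. The nuclear receptor Nr4a1 was at -0.72 and -0.97, and the zinc finger factor Egr4 at -0.52 and -0.77. Ttr had the second lowest footprinting change in both transgenic tables, so a smaller change in each of these 5 was fixed beforehand. The controls of both tables come from a single labelled group.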

How the data were processed

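Values came from 3 deposited tables. The signal values in them, normalized means of reads in the CDS per group and assay, were made by the authors with TopHat 2.0.11, Bowtie2 2.2.2 (mm9) and DESeq 1.20, each table separately. The folding energy in kcal/mol was deposited by the authors from an annotation of 5′UTRs. The authors' TE, dTE and z-score columns hold values computed from the same means and were not used. Log2 changes and TE were computed from the means with a pseudocount of 0, without a test. Library reads were solved for from the decimals of each mean, and the method was tested on simulated data. Between 98.6% and 99.9% of transcripts of a recovered column were resolved, against 0.105% to 1.71% after a shift of the values. Recovered values enter limma 3.58.1 (R 4.3.3) as log2 with a pseudocount of 10, and its p-values measure only the spread between pools. Python 3.11.15, numpy 2.4.6, pandas 2.3.3, scipy 1.17.1 and matplotlib 3.10.9 were used.

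The genes and 14 lists (choroid plexus, leptomeninges, ependyma, oligodendrocyte, astrocyte, endothelial and mural, microglia, spiny neuron, cortical projection neuron, red blood cell, partners of Ttr, IGF, lysophosphatidic acid and prostaglandin, CLIC) were chosen with earlier results of these data known. Named genes are the 5 nearest to Ttr, at most 4 per list with the highest control footprinting level, list genes called by limma, and Lrrk2, and list genes past a log2 change of 0.5 were named after their values were seen. Alternatives were other pseudocounts, centring on the median, the mean of log2 values, a log2 change of 1, means of at least 500, a library batch block, rescaled libraries, single libraries left out, and changes within library batches. Ventral midbrain libraries were left out, since no table holds them.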

Additional observations from a re-analysis of the deposited data

How the results depend on the processing

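Of 344 alternative values, 312 were counted as the same because they stayed within the spread between libraries or, for counts, within 1.5 times. Another 17 moved by more than that and 15 reversed. Some of the 312 also changed sign within the spread between libraries, such as Enpp2 in GS/DA LRRK2 TG footprinting, at 0.31 without non-TG control library 2. Other pseudocounts, centring on the median, the mean of log2 values and rescaled libraries moved none beyond that spread or, for counts, beyond 1.5 times. Within it, the mean of log2 values put Ttr at -0.62 in LRRK2 KO footprinting, at -0.90 in GS/DA LRRK2 TG footprinting and its GS/DA LRRK2 TG TE difference at -0.11, and list genes past 0.5 went from 9 to 6 in LRRK2 KO RNA-Seq with a pseudocount of 10 and from 5 to 4 in GS/DA LRRK2 TG footprinting with that or with centring. Leaving out single libraries gave, for Ttr in GS LRRK2 TG, -3.27 to -1.93 in footprinting, -3.40 to -1.17 in RNA-Seq and -1.38 to 0.95 in TE difference. For GS/DA LRRK2 TG the ranges were -3.00 to 1.40, -2.80 to 1.25 and -2.78 to 2.28 (with reversed TE differences of 0.0539, 0.17 and 1.26 between), and for LRRK2 KO they were -2.22 to 0.97, -2.61 to -0.29 and -1.19 to 2.72. Ptgds in LRRK2 KO ran from -2.86 to 1.08 in footprinting and from -2.42 to 0.68 in RNA-Seq. List genes called by limma ran from 0 to 3 in GS/DA LRRK2 TG footprinting, where a lone library is assumed to vary like the other group.

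Changes within library batches were added after seeing the data. Within batch 1, Ttr was at 2.11 in GS/DA LRRK2 TG footprinting, at 2.04 in RNA-Seq and at -3.02 in LRRK2 KO RNA-Seq. Within batch 2, it was at -2.27 in LRRK2 KO footprinting and 0.28 in RNA-Seq. In GS/DA LRRK2 TG, Enpp2 was at 0.51 in batch 1 footprinting and -1.30 in batch 2 RNA-Seq, and Clic6 at -0.64 in batch 2 RNA-Seq. At a log2 change of 1 the list genes past it were 0 in GS LRRK2 TG RNA-Seq, 3 in GS/DA LRRK2 TG footprinting, and 0 in both LRRK2 KO assays, since fewer genes pass a stricter threshold. With means of at least 500 they were 3 in GS/DA LRRK2 TG footprinting, 1 in RNA-Seq and 1 in LRRK2 KO RNA-Seq, since fewer genes are counted. Nothing is read from these counts. With the library batch as a block, limma called 3 list genes in GS/DA LRRK2 TG footprinting. For the other changes the cause was not tested. No paired analysis was possible because the columns are group means that carry no replicate number, except pairing by library batch. The library batches used above, as a block and for changes within batches, were read from the values themselves. Depth limits Ttr most in LRRK2 KO footprinting, where a library held 13 reads.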

Other observations

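A single gene, growth hormone (Gh), a pituitary hormone, had a lower footprinting change than Ttr in both transgenic tables, and it was looked up after its value was seen. Gh footprinting had a mean of 1366 in non-TG control, and the GS LRRK2 TG libraries held 25.1 and 25.7. Against GS/DA LRRK2 TG, the control libraries held 7894 and 76.4, from 10250 and 61 reads, and the GS/DA LRRK2 TG libraries 37.8 and 87.2. Gh was thus high in a single control library, and this was control library 1, in which Ttr was low. The log2 change was -5.75 in GS LRRK2 TG and -5.99 in GS/DA LRRK2 TG. In RNA-Seq, the control libraries held 1081 and 40.4 and the GS/DA LRRK2 TG libraries 36.0 and 3.24. Gh has no row in the LRRK2 KO table.

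Cortical projection neuron markers also differed between libraries of a group. Their summed footprinting level was 575 and 2483 in the GS LRRK2 TG libraries, beside 1757 in the control mean. It was 1792 and 1243 in the control libraries compared with GS/DA LRRK2 TG and 4335 and 2765 in GS/DA LRRK2 TG, without overlap there.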
